A study of Rattus norvegicus with 4 samples.

Results

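The genes of the proteasome were examined in the rat hippocampal CA3 area. The members are the genes whose symbol is Psma, Psmb, Psmc, Psmd, Psme or Psmf followed by a number, without the immunoproteasome genes Psmb8 and Psmb9, each read from its brightest probe set with 1 annotated symbol. The rule found 38 genes on 52 probe sets, out of 14218 genes on the array. They are 14 genes of the core particle, 9 of the base and 8 of the lid of the regulatory particle, 3 assembly chaperones and 4 regulators. The name constitutive holds only in part. The rule also keeps Psmb10, the remaining catalytic subunit of the immunoproteasome, and Psme1 and Psme2, which are interferon-inducible. Psma8, Psmb6, Psmb11 and Psme3 had no probe set with a single symbol and were not analysed here, so Psmb6, which encodes a standard catalytic subunit, has no value.

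The proteasome degrades proteins tagged with ubiquitin. Its core is a barrel whose outer rings are built of alpha subunits and whose inner rings are built of beta subunits, 3 of which, Psmb5, Psmb6 and Psmb7, carry the standard catalytic sites. The base holds the ATPases that unfold substrates, and the lid holds the enzyme that removes ubiquitin chains. In neurons the proteasome turns over damaged and synaptic proteins, and when its capacity falls short the transcription factor NRF1, encoded by Nfe2l1, can raise the subunit genes together.

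Sprague-Dawley rats were injected into the hippocampus with PBS as vehicle, with kainic acid (KA, which excites neurons through kainate receptors and is toxic to CA3), with KA together with the peptide NAP at 1e-13 M, or with NAP alone. CA3 was taken 24 h later, and 1 Affymetrix array was made per group from 500 ng of total RNA. The sources used here do not give the dose of KA, the age and sex of the rats, or whether an array holds 1 animal or a pool. A group has 1 array, so values carry no error between replicates, no test was made, and every difference is between single arrays. Values are MAS5 intensities, and differences are of log2(intensity + 10), where 0.32 on the log2 scale is 25% higher and −0.32 is 20% lower. The smaller of the fixed sizes used below is this one, at least 25% higher or at least 20% lower, and the larger is 2-fold.

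The arrays had been scaled to a common level, with a trimmed mean of 250.1 on each. All 5 CA3 markers were past the intensity filter. The 3′ to 5′ ratio of the beta-actin control, a measure of RNA length, lay between 11.4 and 15.5 on the PBS, KA and KA+NAP arrays and was 7.92 on the NAP array. The other controls did not set that array apart: the GAPDH ratios lay between 1.31 and 1.56, with NAP at 1.40, and the hexokinase ratios between 5.5 and 8, with NAP at 6.05. The intensity of the haemoglobin gene Hbb was 5 with PBS, 186 with KA, 1549 with KA+NAP and 1430 with NAP, so the arrays differed in blood content by this marker. Ttr, the only choroid plexus marker past the filter, was at 354 with PBS, 453 with KA, 76 with KA+NAP and 359 with NAP. The part of RNA length, of blood and of choroid plexus tissue in the results below was not tested.

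All 38 members had a mean intensity above the filter threshold of 62.75, and none was at 0 on any array. In 28 of the 38 members (73.7%), the intensities of both arrays with kainate lay above those of both arrays without it, whereas 32.3% of the 9490 genes past the filter showed that order. The reverse order was seen in 1 member, the chaperone gene Psmd10, against 28.7% of all genes. Among genes at least as bright as the dimmest core, base or lid gene, 31.6% had both kainate arrays above. The sizes were small. The median over members was 0.26 in KA minus PBS and 0.35 in KA+NAP minus NAP, which share no array, beside 0.02 and 0.03 over all genes.

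In KA minus PBS, 16 members (42.1%) were at least 25% higher, against 25% of all genes, and 1 was at least 20% lower, against 21.6%. Psme4 alone among the members was 2-fold higher, against 4.91% of all genes, and none was 2-fold lower, against 2.39%. In KA+NAP minus NAP, 21 members (55.3%) were at least 25% higher, against 26.4% of all genes, and 2 were at least 20% lower, against 21.9%. No member was 2-fold apart there, against 5.66% of all genes higher and 2.41% lower. At least 25% higher in both differences were 10 members, or 26.3%, against 15.5% of all genes. Those 10 are 62.5% of the members higher without NAP and 47.6% of those higher with it. Over all genes the same shares were 61.9% and 58.6%. Several members sat at the edge of the rule. Psmd5 at 0.32 and Psmd3 at 0.33 were just inside in KA+NAP minus NAP, while Psmb1 and Psmb10, both at 0.32, were just outside.

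**Figure D1:**
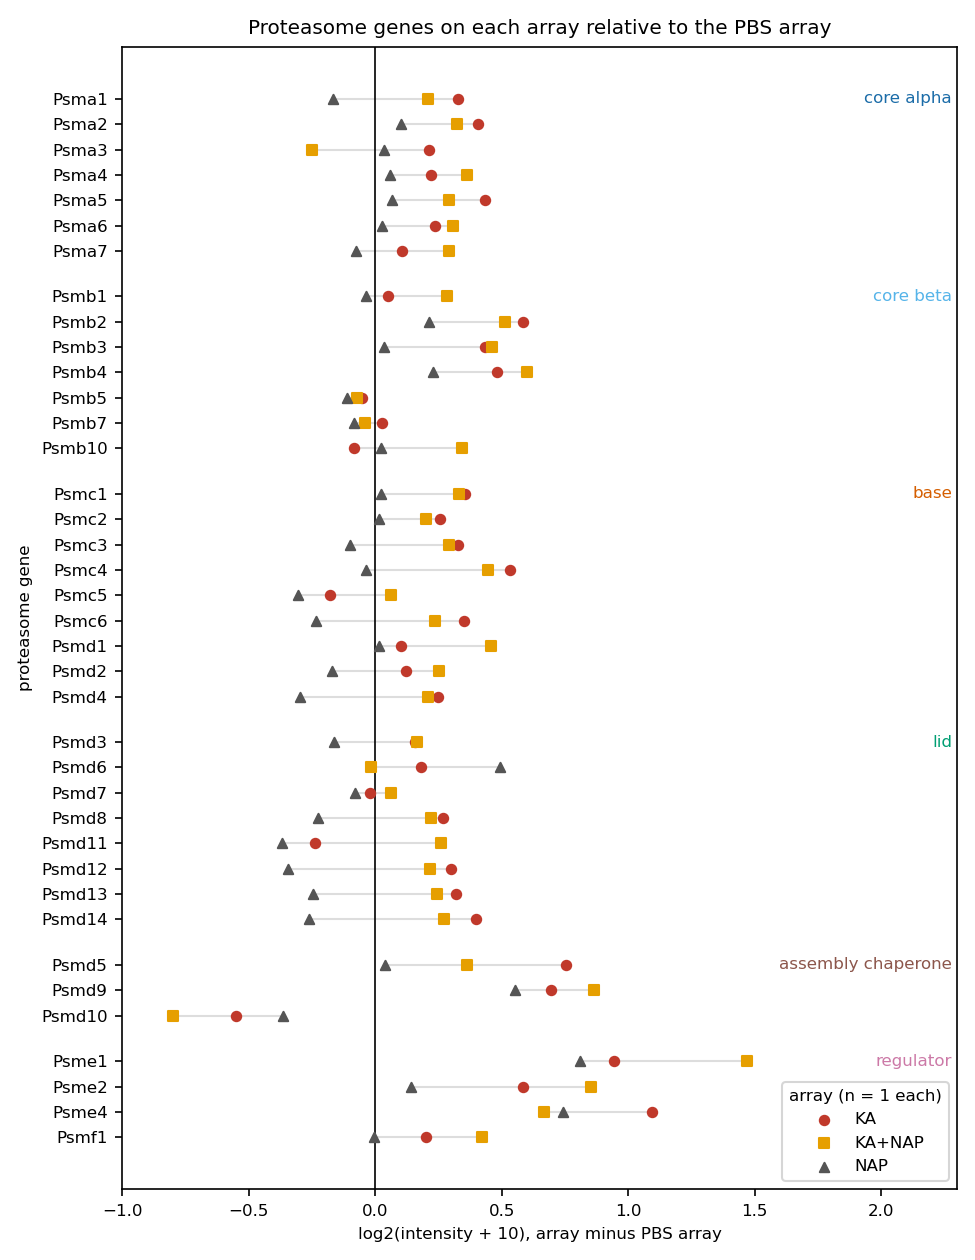
Each row is 1 proteasome gene, and the points give log2(intensity + 10) on the KA, KA+NAP and NAP arrays minus that on the PBS array (1 array per group, no error bars). In 28 of the 38 genes both kainate points lie to the right of both the PBS line at 0 and the NAP triangle, and Psmd10 is the 1 gene with both to the left.

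Cell type markers were set beside these values. Of 34 markers past the filter, 5 had both kainate arrays above, against 32.3% of all genes. Both kainate arrays lay below in 15 of them, against 28.7%. The 6 neuronal markers summed to an intensity of 17382 with PBS, 13322 with KA, 13340 with KA+NAP and 16129 with NAP, and 5 of the 6 had both kainate arrays below. The 5 CA3 markers summed to 4158, 2552, 2168 and 3912 in that order of arrays, with 4 of 5 below. The neuronal lists were therefore lower on the arrays where most proteasome genes were higher. The 9 microglia and macrophage markers summed to 2018 with PBS, 1437 with KA, 3237 with KA+NAP and 2201 with NAP. The low KA sum reflects P2ry12, a marker of resting microglia, which was at 1071 with PBS and 232 with KA. Most markers of that list were higher with kainate. In KA minus PBS, 6 of the 8 past the filter were above 0, against 52.2% of all genes, with a median of 0.41. The median was 1.21 in KA+NAP minus NAP. Of the 8 past the filter, Cd68, Ptprc and Cd53 had both kainate arrays above, against 32.3% of all genes. P2ry12 had both below, against 28.7%, and the other markers overlapped. The 6 astrocyte markers summed to 24845, 23631, 25559 and 26656 on the PBS, KA, KA+NAP and NAP arrays. Among them only Gfap had both kainate arrays above, at 5744, 8147, 9776 and 8065, and 3 of the 6 had both below. No marker on these lists was at 0. In tissue RNA a change in the number of cells of a type cannot be told apart from a change in RNA per cell, and the part of cell composition in the proteasome values was not tested.

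The alpha subunits form the outer rings of the core and its gate. All 7 were higher with KA than with PBS, by 0.11 to 0.43, whereas 52.2% of all genes were above 0. At least 25% higher were 3 (42.9%), against 25% of all genes. Psma5 went from 2577 with PBS to 3482 with KA, and from 2696 with NAP to 3158 with KA+NAP. Psma1 stood at 1540, 1933, 1780 and 1369 on the PBS, KA, KA+NAP and NAP arrays, and Psma2 at 1699, 2253, 2130 and 1824. In these 3 genes the KA array was the highest and KA+NAP was second. For Psma4 the intensities in the same order were 1118, 1306, 1440 and 1166. Psma6 had 3260, 3846, 4038 and 3324, and Psma7 had 1878, 2023, 2302 and 1780. These 3 genes were highest with KA+NAP. Psma3 was the exception in the ring: it read 902 with PBS, 1046 with KA, 757 with KA+NAP and 924 with NAP. Its KA+NAP value was the lowest of the 4, so its kainate difference was 0.21 without NAP and −0.28 with it. A further probe set annotated to this gene and to a related one was not used.

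By whether both kainate arrays lay above, the beta genes divided between the structural subunits and the catalytic ones, with Psmb6 not measured. The sizes did not divide cleanly. In KA minus PBS the structural Psmb1 was at 0.05 and the catalytic Psmb7 at 0.03. In KA+NAP minus NAP the catalytic Psmb10 was at 0.32 and the structural Psmb2 at 0.30. The structural genes Psmb2, Psmb3 and Psmb4 were higher in both kainate differences. Psmb2 was at 1221 with PBS and 1836 with KA, and at 1416 with NAP and 1746 with KA+NAP, giving 0.58 and 0.30. Psmb3 was at 978 and 1326, then 1002 and 1352, giving 0.44 and 0.43. Psmb4 was at 2928 and 4090, then 3436 and 4444, giving 0.48 and 0.37. Psmb1, also structural, was nearly level without NAP, at 1998 and 2072, and stood at 1950 with NAP and 2437 with KA+NAP. All 4 structural genes thus had both kainate arrays above both others, an order seen in 32.3% of all genes.

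The standard catalytic genes were nearly level across the arrays. Psmb5, which encodes the chymotrypsin-like subunit, read 3446 with PBS, 3319 with KA, 3274 with KA+NAP and 3191 with NAP. Psmb7, which encodes the trypsin-like subunit, read 3369, 3432, 3274 and 3179 in that order. Their kainate differences lay between −0.05 and 0.04, and the groups overlapped. Psmb10, whose product replaces that of Psmb7 in the immunoproteasome, was at 340 with PBS, 320 with KA, 434 with KA+NAP and 346 with NAP, so KA+NAP alone stood above the rest. The median of the 14 core genes was 0.23 in KA minus PBS and 0.30 in KA+NAP minus NAP.

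In the base, 8 of 9 genes (88.9%) had both kainate arrays above both others, against 32.3% of all genes. The 6 Psmc genes encode the ATPase ring. Psmc4 showed the largest average difference of the core, base and lid genes, at 902 with PBS, 1308 with KA, 1233 with KA+NAP and 878 with NAP, or 0.53 and 0.49 in the 2 kainate differences. Psmc1 had intensities of 2035, 2608, 2566 and 2067, in the order PBS, KA, KA+NAP and NAP. Psmc2 had 3911, 4678, 4500 and 3955, and Psmc3 had 1879, 2362, 2304 and 1754. In each of these 4 ATPase genes the KA array was the highest and KA+NAP was close below it. Psmc6 followed the same order, at 1402, 1791, 1653 and 1192. Psmc5 did not: it read 3510 with PBS, 3103 with KA, 3665 with KA+NAP and 2842 with NAP, so its difference was −0.18 without NAP and 0.37 with it.

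The other base genes encode the large scaffold proteins Psmd1 and Psmd2 and the ubiquitin receptor Psmd4. Psmd1 read 593 with PBS, 637 with KA, 819 with KA+NAP and 599 with NAP, and its higher value was mainly on the KA+NAP array. Psmd2 read 2333, 2542, 2781 and 2071, and Psmd4 read 975, 1160, 1127 and 792. In Psmd4 the NAP array lay below PBS by 0.30, which widened the difference with NAP to 0.50 against 0.25 without it. The base median was 0.26 in KA minus PBS and 0.42 in KA+NAP minus NAP, and 0.25 when KA+NAP was set against PBS.

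On the brightest probe sets, the lid had 5 of 8 genes (62.5%) with both kainate arrays above, against 32.3% of all genes. The third probe set of Psmd14 did not show that order, at 195 with PBS, 263 with KA, 189 with KA+NAP and 214 with NAP. Psmd14, the enzyme that cuts ubiquitin chains from substrates, was at 2971 with PBS, 3918 with KA, 3585 with KA+NAP and 2479 with NAP. The structural lid genes Psmd12 and Psmd13 ran alike. Psmd12 was at 1194, 1471, 1389 and 939, and Psmd13 at 1110, 1386, 1315 and 935, in that order of arrays. Psmd8 was at 674, 813, 786 and 575, and Psmd3 at 514, 575, 578 and 458. In all 5 the NAP array was the lowest of the 4. The lid median was 0.22 in KA minus PBS and 0.47 in KA+NAP minus NAP, but NAP minus PBS was −0.24. With the controls exchanged, KA minus NAP had a lid median of 0.41 and KA+NAP minus PBS one of 0.22, so the size for the lid depended on which array without kainate was used.

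The remaining 3 lid genes did not share that order. Psmd6 was highest with NAP alone, at 3214, against 2283 with PBS, 2590 with KA and 2257 with KA+NAP. Psmd7 was nearly level, at 2288, 2256, 2389 and 2166 on the PBS, KA, KA+NAP and NAP arrays. Its second probe set read 479, 530, 563 and 492 and had both kainate arrays above both others. Psmd11 was at 1178 with PBS, 997 with KA, 1412 with KA+NAP and 909 with NAP, so KA lay below PBS while KA+NAP lay above all others. A second probe set of Psmd11 read 852, 923, 913 and 1005 and did not show that pattern.

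**Figure D2:**
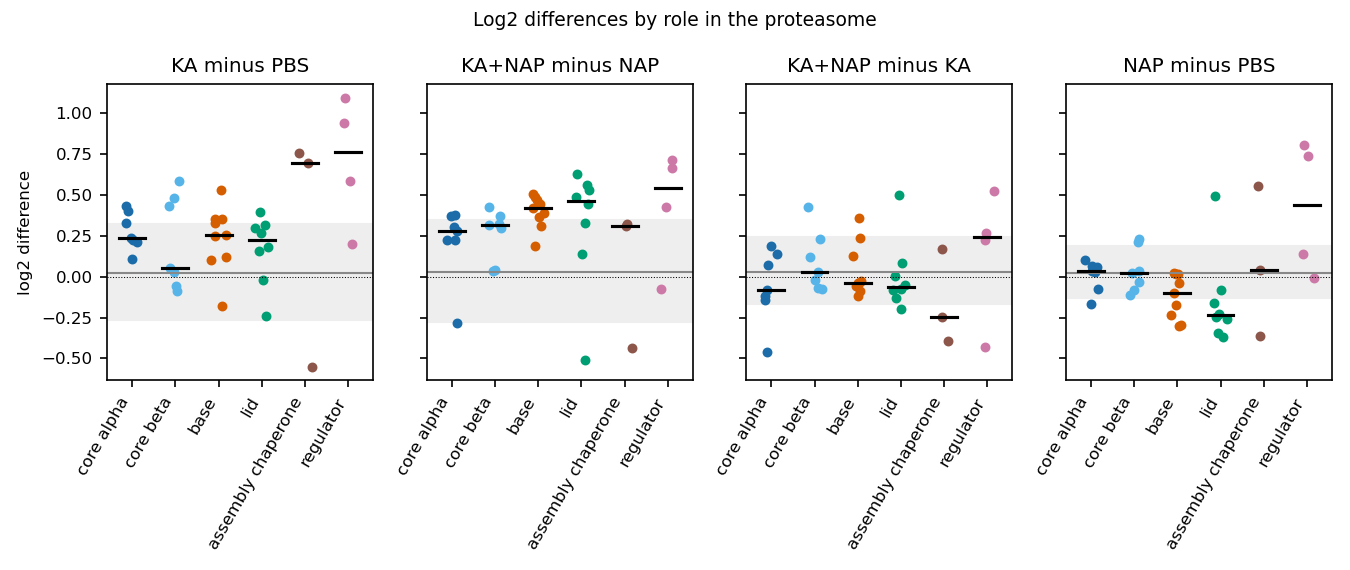
Points are proteasome genes, grouped by role, with their log2 difference in the 4 comparisons, and black bars are the medians of a role. The grey line and band are the median and the middle 50% of all 9490 genes. Base and lid medians are above the band in KA+NAP minus NAP, and the lid median is below it in NAP minus PBS. The regulator median is also above it in KA minus PBS, KA+NAP minus NAP and NAP minus PBS. So is the assembly chaperone median in KA minus PBS.

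The 3 assembly chaperones among the members hold ATPase subunits of the base before these join, and leave the finished particle. Their 3 genes did not move together. Psmd5 was at 707 with PBS, 1201 with KA, 913 with KA+NAP and 727 with NAP, or 0.76 and 0.32 in the kainate differences. Psmd9 was at 95, 160, 181 and 144. Both had the kainate arrays above, although the NAP array of Psmd9 was itself 0.55 above PBS. Psmd10, also called gankyrin and known as an oncoprotein, ran the other way: it was at 660 with PBS, 447 with KA, 375 with KA+NAP and 511 with NAP. Its differences were −0.55 and −0.44, and no other member was at least 20% lower in both, against 11.5% of all genes.

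The regulators included the highest average kainate differences of all members. Psme1 and Psme2 encode the activator ring that interferon induces and that opens the core without ATP. Psme1 was at 527 with PBS, 1023 with KA, 1479 with KA+NAP and 930 with NAP, and its differences were 0.94 and 0.66. Psme2 was at 462, 698, 843 and 510, with differences of 0.59 and 0.71. In both genes KA+NAP was the highest array, and Psme1 was also 0.81 higher with NAP alone than with PBS. Psmf1, which encodes an inhibitor of the core in the test tube and a transport adaptor in neurons, was at 537, 618, 723 and 535.

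Psme4 encodes an activator of the nuclear proteasome linked to DNA repair and histone turnover. Its brightest probe set read 167 with PBS, 368 with KA, 271 with KA+NAP and 286 with NAP, a difference of 1.09 without NAP and −0.07 with it. The other probe sets did not share the second value. One read 109, 279, 309 and 124 in the order PBS, KA, KA+NAP and NAP. The other read 42, 163, 175 and 64, with differences of 1.73 and 1.32. On both of these the kainate arrays lay more than 2-fold above their controls, so the small difference with NAP belonged to the brightest probe set alone.

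Past the filter, 5 members had more than 1 probe set, and these did not always run the same way. In KA minus PBS all probe sets of Psmc6, Psmd14 and Psme4 lay above 0, while those of Psmd7 and Psmd11 fell on both sides. In KA+NAP minus NAP only Psmd7 had all probe sets on 1 side, and in NAP minus PBS only Psme4 did. The second probe set of Psmd14 gave 0.33 without NAP and 0.11 with it, and the third gave 0.41 and −0.17, beside 0.40 and 0.53 for the one used. For Psmc6 the other probe sets gave 0.24 and 0.29 without NAP, and 0.54 and 0.00 with it. Averaging the probe sets of a gene lowered the lid median in KA+NAP minus NAP from 0.47 to 0.29.

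**Figure D3:**
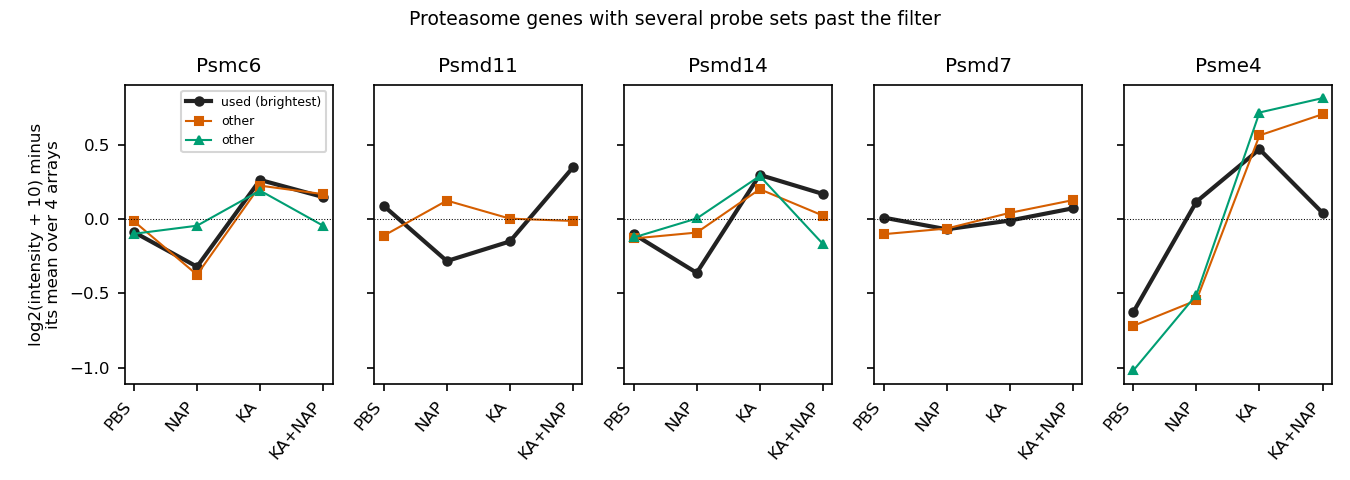
For the 5 proteasome genes with more than 1 probe set past the filter, lines show log2(intensity + 10) on each array minus the mean of that probe set over the 4 arrays. The thick black line is the brightest probe set. In Psme4 the other probe sets stay high on the KA+NAP array where the brightest falls, and in Psmd11 they part on the NAP and KA+NAP arrays.

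The comparison of KA+NAP with KA bears on the peptide in injured tissue. The member median was −0.03, beside 0.03 over all genes, and 17 of 38 members were above 0, against 53.8% of all genes. At least 25% higher were 4 members (10.5%, against 18.2% of all genes), and at least 20% lower were 3 (7.89%, against 11.3%). None was 2-fold apart, against 1.52% of all genes higher and 0.601% lower. The higher ones were Psme1 at 0.53, Psmd11 at 0.50, Psmb10 at 0.43 and Psmd1 at 0.36. The lower ones were Psma3 at −0.46, Psme4 at −0.43 and Psmd5 at −0.39. The core, base and lid medians were 0.00, −0.04 and −0.06. Of the 28 members with both kainate arrays above, 15 were lower with KA+NAP than with KA and 13 were higher. With 1 array a group, no interval can be given for the difference that the peptide made after kainate.

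The comparison of NAP with PBS bears on the peptide without the toxin. The member median was −0.02, beside 0.02 over all genes. At least 25% higher were 4 members (10.5%, against 13.6% of all genes): Psme1 at 0.81, Psme4 at 0.74, Psmd9 at 0.55 and Psmd6 at 0.49. At least 20% lower were 3 members (7.89%, against 8.35%): Psmd11 at −0.37, Psmd10 at −0.36 and Psmd12 at −0.34. None of the members was 2-fold apart, against 1.05% of all genes higher and 0.242% lower. No core gene reached the smaller size in either direction, and the core median was 0.03. In the lid 7 of 8 genes were below 0, Psmd6 being the exception, and in the base 6 of 9 were, while 54% of all genes were above 0. This order rests on the brightest probe sets. The other probe sets past the filter of Psmd7 (0.04), Psmd11 (0.24) and Psmd14 (0.04 and 0.13) lay above 0. The NAP array had the lowest 3′ to 5′ ratio of beta-actin but not of GAPDH or hexokinase, and the part of RNA length in the lid values was not tested.

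**Figure D4:**
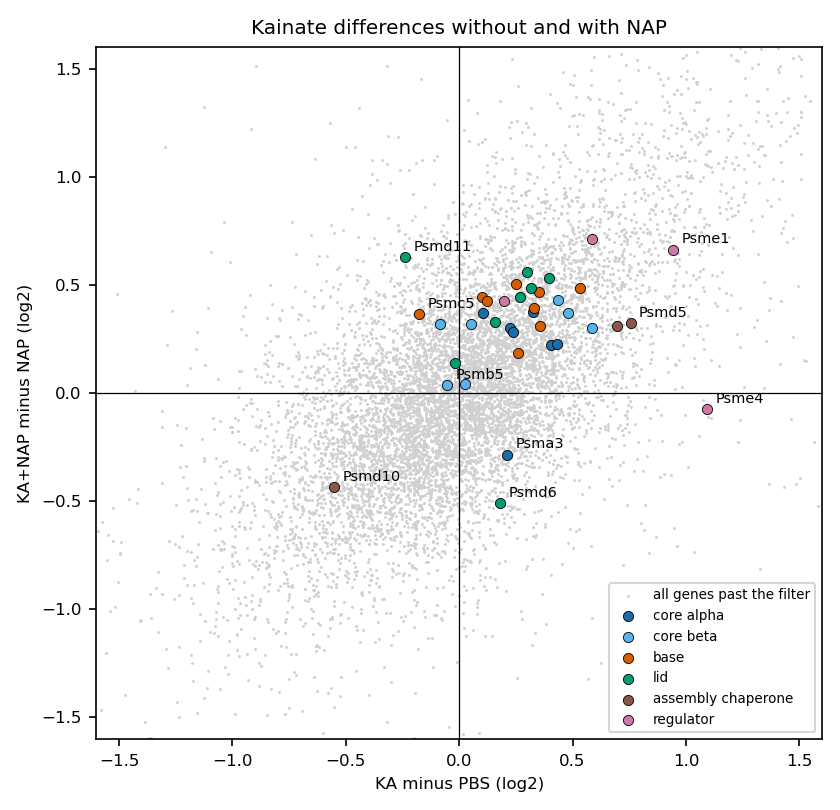
The x axis is KA minus PBS and the y axis KA+NAP minus NAP, in log2 units, and the comparisons share no array. Grey points are all genes past the filter within the plotted range, and coloured points are proteasome genes by role. Most proteasome genes lie in the upper right near 0.3 on both axes, with Psmd10 at lower left and Psmd6, Psma3, Psmd11, Psmc5 and Psme4 off the diagonal.

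Across the 38 members the kainate differences without and with NAP correlated at Pearson r = 0.27 and Spearman rho = 0.24, against 0.70 and 0.61 over all genes. Genes of 1 array pair share its noise and are no replicates, so these values describe the arrays only. The members' differences span a narrow range, and the order of the genes by size was only loosely shared between the comparisons.

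Promoter windows from RefSeq (build GRCr8, 250 bases before to 50 after the gene start) were present for 34 of the members, and were searched because the members were higher together. Psma7, Psmd6, Psmd12 and Psmd14 had no entry. The motif TGACNNNGC, the core of the antioxidant response element bound by NRF1 and NRF2, was found on either strand in 7 of the 34 windows (20.6%), against 12.1% of all 33469 windows in the table and 12.5% of those of protein-coding genes. Among protein-coding windows in the middle range of the members' GC content, 53.3% to 60.5%, the share was 14.6%. It was in 4 of the 25 members with both kainate arrays above and in 3 of the other 9. The stretches below are shown for the 6 genes that carry it upstream of the start, because they include Psmb2 and Psmd9, which were higher with kainate, and Psmb5, which was level. Each is 100 bases, 5′ to 3′ on the strand of the gene, with the motif on either strand in capitals.
Psma3, chr6:95219649-95219748, plus strand: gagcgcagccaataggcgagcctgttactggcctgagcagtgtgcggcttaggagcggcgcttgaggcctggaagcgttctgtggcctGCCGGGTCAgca
Psmb2, chr5:144254944-144255043, plus strand: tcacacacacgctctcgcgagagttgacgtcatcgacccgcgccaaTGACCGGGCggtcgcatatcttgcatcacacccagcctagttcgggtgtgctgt
Psmb5, chr15:32047386-32047485, minus strand: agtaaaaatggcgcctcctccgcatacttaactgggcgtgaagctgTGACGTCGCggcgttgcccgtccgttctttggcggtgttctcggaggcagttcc
Psmd1, chr9:94157760-94157859, plus strand: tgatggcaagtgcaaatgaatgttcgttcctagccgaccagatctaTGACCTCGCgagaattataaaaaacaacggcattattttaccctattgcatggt
Psmd9, chr12:39018311-39018410, minus strand: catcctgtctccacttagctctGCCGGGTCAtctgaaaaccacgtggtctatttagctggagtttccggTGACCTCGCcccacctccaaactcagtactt
Psme4, chr14:108706542-108706641, plus strand: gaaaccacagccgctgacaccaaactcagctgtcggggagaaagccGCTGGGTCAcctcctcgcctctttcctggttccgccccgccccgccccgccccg

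The motif begins 68 bases before the start in Psmb2, 60 in Psmb5, 165 in Psmd1, 55 in Psme4 and 12 in Psma3. Psmd9 holds it at 124 and 77 bases. In Psmb2 it overlaps a CCAAT box. The remaining carrier, Psmd3, and a second match in Psmd1 lie after the start. The motif was thus present both in members with the kainate arrays above, such as Psmb2, and in members whose arrays overlapped, such as Psmb5.

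Other promoter motifs were also counted on both strands. CCAAT, the box bound by NF-Y, was in 17 of the 34 windows (50%), against 37.5% of all windows and 38% of those of protein-coding genes. CCGGAAG, the core site of ETS factors, was in 11 of 34 (32.4%), against 8.75% and 10.7%. It was in 7 of the 25 members with both kainate arrays above and in 4 of the other 9. Among protein-coding windows in the members' middle GC range, the share was 40.1% for CCAAT and 15.9% for CCGGAAG. A match describes the letters of a window and is no evidence that a factor binds there.

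Of 36 further genes of the pathway, 30 had a single-symbol probe set and 28 passed the filter. In KA minus PBS, 8 (28.6%) were at least 25% higher, against 25% of all genes. At least 20% lower was 1 (3.57%), against 21.6%. In KA+NAP minus NAP, 8 (28.6%) were higher by that size, against 26.4% of all genes, and 2 (7.14%) were lower, against 21.9%. The higher shares are near the background, and the lower shares are below it. The medians were 0.21 and 0.15, and 17 of the 28 (60.7%) had both kainate arrays above, against 32.3% of all genes. The immunoproteasome genes that the rule leaves out were highest with KA+NAP. Psmb8 was at 148 with PBS, 248 with KA, 380 with KA+NAP and 160 with NAP. Psmb9 was at 182, 158, 339 and 157. Both were more than 2-fold higher in KA+NAP minus NAP, at 1.20 and 1.06. Psmb10, Psme1 and Psme2 were also highest on the KA+NAP array. That array had the highest sum of microglia and macrophage markers, the highest Hbb (1549) and the lowest Ttr (76). The part of these tissue differences in the values was not tested.

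Beside Psmb8, the genes at least 25% higher in both kainate differences were Fbxo7, Ecpas, Nploc4, Nsfl1c and Nfe2l2, which makes 6 of 28 (21.4%, against 15.5% of all genes). Ecpas, an adaptor that couples the proteasome to other cell structures, was at 846 with PBS, 1193 with KA, 1044 with KA+NAP and 740 with NAP. Nsfl1c and Nploc4 encode cofactors of the unfolding ATPase p97 (Vcp) and were at 805, 1192, 1014 and 747, and at 355, 465, 441 and 305. Vcp itself was at 2252, 2595, 2468 and 2191, a difference of 0.20 and 0.17. Fbxo7, which encodes a ubiquitin ligase subunit that binds Psmf1, was at 428, 560, 575 and 447.

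The transcription factors of the response differed from each other. Nfe2l2, encoding NRF2, was at 401 with PBS, 645 with KA, 797 with KA+NAP and 558 with NAP, or 0.67 and 0.51. Nfe2l1 was at 303, 223, 323 and 244, or −0.43 and 0.39. The Nfe2l1 intensity was therefore lowest on the KA array. In KA minus PBS it ran against the member median of 0.26, and in KA+NAP minus NAP it was near the member median of 0.35. NRF1 is known to be controlled mainly after translation, and its part in the subunit values was not tested. The core chaperone gene Pomp stayed between 2496 and 2704. Usp14, a deubiquitinase bound to the base, lay between 3932 and 4190, slightly lower with kainate. The shuttle receptor gene Ubqln2 was lower with kainate, at 4922 with PBS, 4070 with KA, 3661 with KA+NAP and 4983 with NAP, and Uba6, an enzyme that activates ubiquitin, was at 542, 515, 345 and 526.

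**Figure D5:**
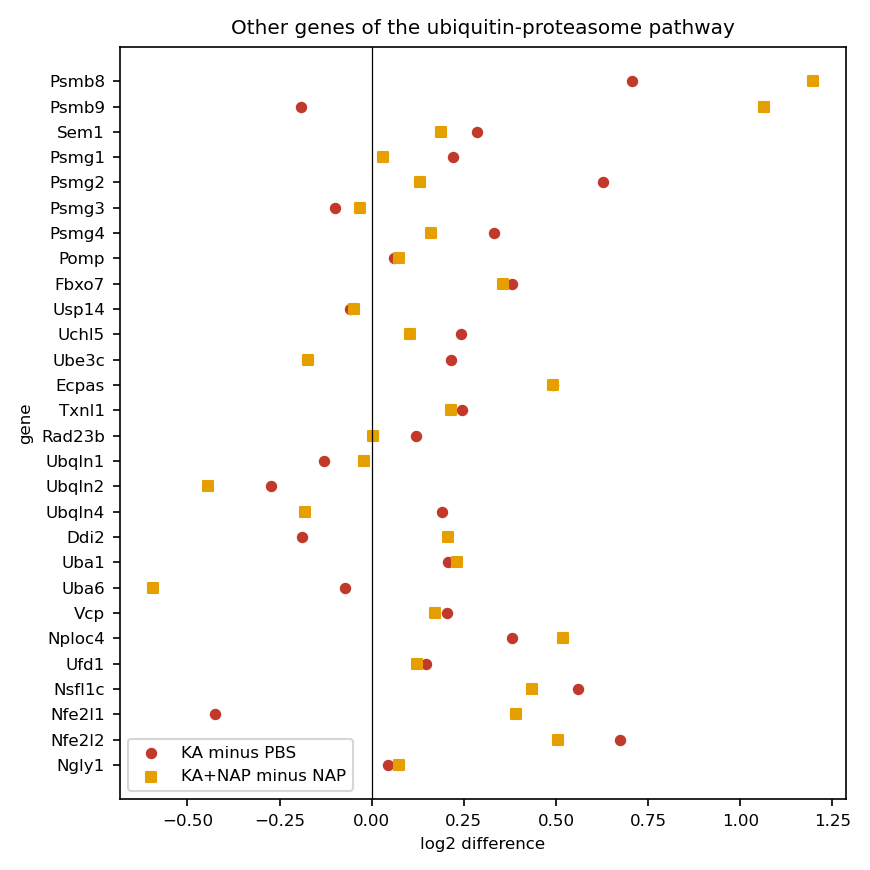
Rows are the 28 other genes of the ubiquitin-proteasome pathway past the filter. Red circles are KA minus PBS and orange squares KA+NAP minus NAP, in log2 units. Psmb8 and Psmb9 reach 1.20 and 1.06 in KA+NAP minus NAP, and Nfe2l1 lies on opposite sides of 0.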

How the data were processed

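1 array was made for each of 4 groups (PBS, KA, KA+NAP, NAP) from 500 ng of total RNA by a standard 2-cycle amplification, per the labels' protocols, which favours 3′ ends. The deposited values are linear intensities that the authors computed with MAS5, per the submitters' processing notes. The version and settings of MAS5 are not stated in these sources. Gene symbols came from the platform annotation: 20832 of 31099 probe sets had 1 symbol and 436 several, which were not named. Symbols were updated through the GRCr8 gene table, which held 20764. Each gene took its brightest probe set by mean intensity. Genes entered when that mean exceeded 62.75, the median over non-control probe sets. Differences used log2(intensity + 10). They were computed in Python 3.11.15 with pandas 2.3.3 and tested on simulated data. Fixed sizes (25% higher, 20% lower, 2-fold) describe differences, beside the share of all genes that pass. With 1 array per group no test was made, and the number of arrays limits the precision. Every member is named with its 4 intensities, and pathway genes by size in both kainate differences or at 2-fold. Where further members of that list are given, such as Vcp, Nfe2l1, Pomp, Usp14, Ubqln2 and Uba6, they were chosen after their values were seen. Members and lists were chosen with earlier results of these data known. Alternatives changed the pseudocount, filter, probe set rule, scaling and list borders.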

Additional observations from a re-analysis of the deposited data

Results flagged for a closer look

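In 2 genes the NAP effect had opposite directions without and with kainate, each at least 25% higher or 20% lower, and the difference between the effects was not tested. Psmd11 was at −0.37 in NAP minus PBS and 0.50 in KA+NAP minus KA. Its second probe set past the filter gave 0.24 and −0.02. Psme4 was at 0.74 in NAP minus PBS and −0.43 in KA+NAP minus KA. Its other probe sets gave 0.17 and 0.51 in NAP minus PBS, and 0.14 and 0.10 in KA+NAP minus KA. Neither pattern was thus seen on the gene's other probe sets.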

How the results depend on the processing

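Of 210 recomputed values, 202 moved by under 0.1 on the log2 scale, or by at most 1.5 times for a count. Among these, the core median in KA+NAP minus KA, at 0.00, turned to −0.03 with the median difference over all genes set to 0 and to −0.02 without Psmb10. None of the medians of 0.1 or more changed sign under the 9 alternatives set at the start or the exchange of controls, which was added after seeing the data. The median over all members ranged from 0.24 to 0.32 in KA minus PBS and from 0.29 to 0.38 in KA+NAP minus NAP, and the number with both kainate arrays above ranged from 27 to 31. With the probe sets of a gene averaged, the lid median was 0.29 in KA+NAP minus NAP and −0.12 in NAP minus PBS. With the NAP array in place of PBS, the lid median for KA was 0.41, and 0 members were at least 20% lower. With the PBS array in place of NAP, the medians for KA+NAP were 0.25 for the base and 0.22 for the lid, and 1 member was at least 20% lower. With the filter at the 75th percentile, which 36 members passed, 2 members were at least 25% higher in NAP minus PBS. No paired analysis was possible because each group has 1 array. Signal over background could not be weighed from the intensities alone.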
